A study of Mus musculus with 12 samples.

Results

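Expression of RANKL (Tnfsf11), of the RANKL receptors and of further tumour necrosis factor (TNF) receptors was compared in granulosa cells of wild-type mice and of mice without the inhibin alpha subunit gene, Inha, before and after an ovulatory stimulus. The 7 genes are the ligand Tnfsf11, its signalling receptor Tnfrsf11a, its soluble decoy receptor Tnfrsf11b, and the receptors Eda2r, Tnfrsf12a, Tnfrsf19 and Tnfrsf21. All 14 probe sets that name 1 of these genes alone were taken, of 34945 such probe sets for 18193 genes. The family was chosen by measured values of these same arrays, namely that Tnfsf11 and Eda2r change, so the values of those 2 genes are given as a description and without a test. A change of the other 5 genes was not a stated reason for the choice, and 4 of them were tested. All 7 genes were, however, chosen with earlier results of these data known, so these tests are not blind to the arrays.

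RNA was measured on 12 single-colour Affymetrix arrays, 3 in each of 4 groups. The mice were wild type or Inha-/-, both on a mixed C57BL/6J;129S5/SvEvBrd background, and were 21 days old. All received 5 IU of PMSG, a gonadotropin with follicle-stimulating activity, for 44 to 46 hours. In each genotype 1 group was collected at that point and the other 6 hours after 5 IU of hCG, which acts on the luteinizing hormone receptor and sets off ovulation. Granulosa cells were released by puncturing antral follicles and were not cultured, and the knockout is of the whole animal rather than of one cell type. Whether a sample combined cells of several mice is not given in the sources used here. By the labels the samples of a group are independent, and p-values here measure only the spread between these samples.

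Cytokines of the TNF superfamily bind receptors that recruit TRAF adaptors or death domain adaptors, and from there reach NF-kB, JNK or caspase 8. RANKL is best known for driving the formation of osteoclasts in bone through Tnfrsf11a, with Tnfrsf11b, osteoprotegerin, as a soluble trap, and for the progesterone-dependent growth of mammary epithelium. In the ovary, TNF receptors and their adaptors are studied for granulosa cell survival and for the inflammation-like events of ovulation.

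Values are on a log2 scale, on which each probe set was centred on its own median over the 12 arrays. A value of 1 is therefore a doubling of the median of that probe set, and no value is an absolute level or can be set against another gene. A difference between groups is a difference of log2 means with its standard error (SE). Of the 7 genes 6 were among the 12500 tested with limma, which had to lie in the upper 60% of probe sets by variation over the arrays, and Tnfrsf11a was not. Tests carry p-values adjusted by Benjamini-Hochberg over those 12500 genes, and called genes are those with an adjusted value below 0.05.

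Inha lay between 5.40 and 5.87 on the 6 wild-type arrays and between -7.40 and -5.40 on the 6 knockout arrays, as labelled. Array medians lay between -0.02 and 0.09. Of the 11 granulosa cell markers tested, 9 fell after hCG in the wild type, where 1530 of all 12500 genes were called lower. In the knockout 0 fell and 1 rose, where 28 of the 12500 were called lower and 306 higher. Against the wild type, 1 was lower in the knockout after PMSG, and 4 were higher and 1 lower after hCG. The same 2 comparisons over all 12500 gave 373 higher and 401 lower calls after PMSG. After hCG they gave 1568 higher and 1104 lower calls. Markers of other cells moved with genotype as well. Of the 13 oocyte markers tested, 7 were higher in the knockout after PMSG and 9 after hCG. Of the 14 theca and stroma markers, 5 were higher and 1 lower after PMSG, and 8 were higher after hCG. Of the 9 surface epithelium markers, 5 were lower after PMSG and 5 after hCG, and of 8 leukocyte markers 0 were called in either. Of 9 endothelial markers, 1 was lower in the knockout after PMSG and 1 after hCG. The median of the oocyte markers lay between -1.59 and -0.66 on wild-type arrays after PMSG and between 0.76 and 2.34 on knockout arrays after PMSG, and after hCG between -1.54 and -0.59 and between 0.61 and 3.12. The median of the theca and stroma markers lay between -0.56 and -0.16 in the wild type and between 0.50 and 1.73 in the knockout after PMSG, and after hCG between -1.16 and -0.48 and between 0.05 and 2.43. That of the surface epithelium markers lay between 0.04 and 0.73 in the wild type and between -1.26 and -0.35 in the knockout after PMSG, and after hCG between 0.35 and 1.04 and between -0.44 and -0.06. Whether defining markers are at the floor of the array cannot be read from centred values. In bulk RNA, fewer cells of a type and less RNA per cell cannot be told apart, and the part of other cells in the genotype differences below was not tested.

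The 250 bases before the annotated start of Tnfsf11, Eda2r and Tnfrsf12a are shown because these 3 genes had non-overlapping arrays between the genotypes after PMSG. They are from RefSeq, build GRCm38.p6, on the gene's own strand and 5′ to 3′. Of the 7 genes 6 had an entry, all except Tnfrsf11b. Capitals mark matches on either strand, and overlapping matches run together. The letters searched were TATAAA for the box bound by the TATA-binding protein, GGGCGG for the box bound by Sp1, TGANTCA for AP-1 sites, TGACGTCA for cAMP response elements (CRE), AGAACA for the steroid receptor half-site, TGTGGT for RUNX sites and GGGANTTCC for NF-kB sites.
Tnfsf11 (chr14:78308044-78308293, - strand): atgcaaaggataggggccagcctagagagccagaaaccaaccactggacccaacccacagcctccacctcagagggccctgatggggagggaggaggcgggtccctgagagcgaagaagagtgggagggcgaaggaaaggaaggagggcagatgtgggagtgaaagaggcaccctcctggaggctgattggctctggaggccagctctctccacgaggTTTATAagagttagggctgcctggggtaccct
Eda2r (chrX:97377210-97377459, - strand): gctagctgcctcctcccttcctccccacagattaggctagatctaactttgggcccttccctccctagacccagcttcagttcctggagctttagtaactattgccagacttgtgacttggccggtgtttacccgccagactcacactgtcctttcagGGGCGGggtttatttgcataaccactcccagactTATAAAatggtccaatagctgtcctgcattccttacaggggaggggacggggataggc
Tnfrsf12a (chr17:23677450-23677699, - strand): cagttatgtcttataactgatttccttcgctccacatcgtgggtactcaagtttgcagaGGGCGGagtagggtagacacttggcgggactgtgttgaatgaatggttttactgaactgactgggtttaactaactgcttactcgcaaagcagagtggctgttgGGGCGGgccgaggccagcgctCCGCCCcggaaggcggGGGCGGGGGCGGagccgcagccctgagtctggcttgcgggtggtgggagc

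The Tnfsf11 window held 1 TATA box match, on the reverse strand at -32, counted from the start to the first base of the match, and none of the other 6 motifs. The Eda2r window held a TATA box match at -58 and a GC box match at -92. The Tnfrsf12a window held 5 GC box matches, at -191, -87, -66, -50 and -44, and none of the other motifs. Over 32536 distinct windows of 250 bases, 12.3% held a TATA box match, 33% a GC box, 6.73% an AP-1 match, 1.56% a CRE, 16% a steroid receptor half-site, 14% a RUNX match and 1.44% an NF-kB match. A match is a description of the letters and no site of binding was measured.

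Tnfsf11 was high in wild-type cells after PMSG and low in knockout cells after PMSG. After hCG the means of both genotypes lay between, with a wide spread that reached into the range of the knockout arrays after PMSG. Its first probe set, 1419083_at, read 2.13, 2.00 and 2.80 on the wild-type arrays after PMSG. On the knockout arrays after PMSG it read -1.09, -3.55 and -3.66. The groups did not overlap, and knockout replicate 1 lay well above the other 2 knockout arrays.

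After hCG, the same probe set of Tnfsf11 read 0.14, 1.30 and -2.58 in the wild type. In the knockout after hCG it read -3.34, -0.14 and 0.82. These 2 groups overlapped over most of their range, and each held 1 array far below its other 2. The group means followed this order: 2.31 ± 0.43 (SD, n = 3) for the wild type with PMSG alone, -0.38 ± 1.99 with hCG added, -0.88 ± 2.18 for the knockout with hCG and -2.77 ± 1.46 for the knockout with PMSG alone. Only the first step in that order exceeded the ranges of its neighbours, since all 3 wild-type arrays after PMSG lay above every other array.

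The knockout was lower than the wild type by a log2 difference of -5.08 ± 1.15 (SE) after PMSG, a 33.8-fold difference. After hCG that difference was -0.50 ± 1.15. From PMSG to hCG the wild-type mean moved by -2.69, or 6.45-fold, with no overlap between the arrays. The knockout mean moved the other way, by 1.88, with overlapping arrays. The responses to hCG of the genotypes thus differed by 4.57 ± 1.62, stated as a description because the gene was chosen for its change.

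A second probe set for Tnfsf11, 1451944_a_at, gave the same picture. It read 2.49, 2.23 and 3.21 in the wild type after PMSG and -0.49, -1.87 and -2.18 in the knockout after PMSG. The wild-type arrays after hCG stood at 0.53, 0.81 and -1.65, and the knockout arrays at -1.99, -0.95 and 0.49. The knockout difference was -4.16 after PMSG (17.8-fold) and -0.72 after hCG, and the hCG difference was -2.74 in the wild type and 0.70 in the knockout. Over the 12 arrays the 2 probe sets correlated at r = 0.958, as a description of 2 readings of the same RNA.

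Leaving out any 1 array kept the Tnfsf11 genotype difference after PMSG between -5.92 and -4.63. The difference after hCG depended on single arrays: it was -1.61 without wild-type replicate 3 and 0.72 without knockout replicate 1. The wild-type change after hCG was -1.59 without wild-type hCG replicate 3 and lay below that with any other array left out, down to -3.53. The knockout change after hCG ranged from 1.03 without hCG replicate 3 to 3.11 without hCG replicate 1.

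The serial number in the array names fell into a low and a high range, with 7 arrays below 9000 and 5 above. Low and high serial numbers were mixed unevenly over the groups: all wild-type PMSG arrays were low, and after hCG only replicate 1 of each genotype was low. Among low-numbered arrays the Tnfsf11 knockout difference was -4.63 after PMSG and, with 1 array a group, -3.48 after hCG. Among high-numbered arrays the difference after hCG was 0.98. Both low arrays of the knockout after PMSG against the 1 low array after hCG gave an hCG difference of -1.01, while the high arrays gave 3.998. The part of the serial number in the hCG values of Tnfsf11 was not tested.

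**Figure D1:**
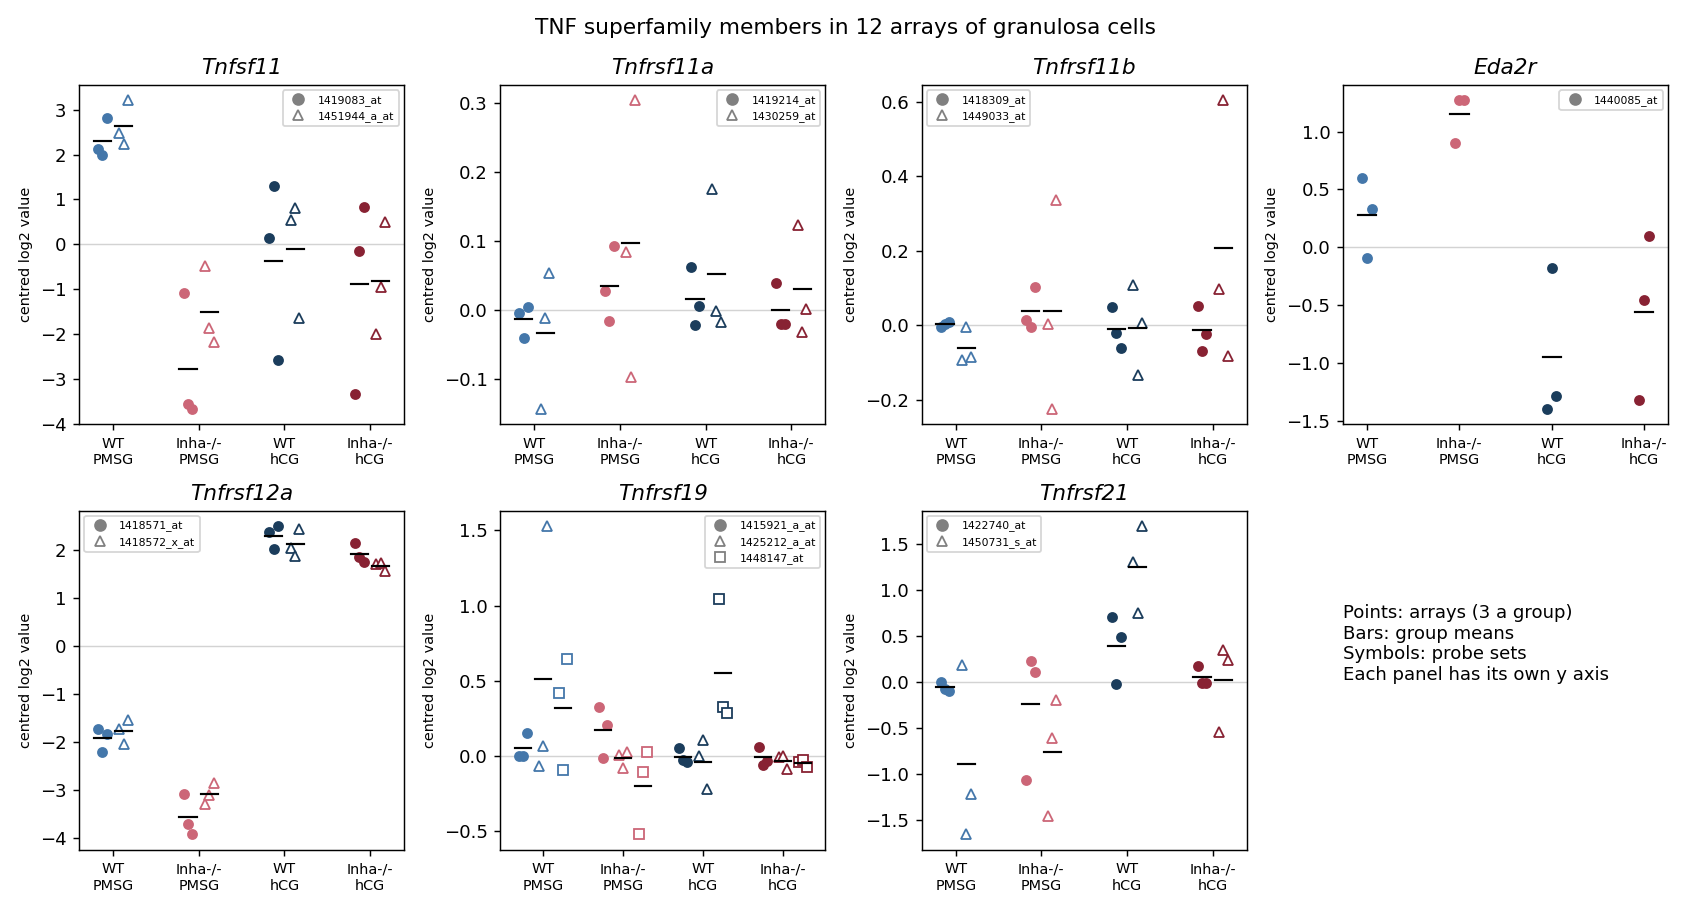
Centred log2 values (y axis, own scale in each panel) of the 14 probe sets of the 7 genes in the 4 groups of 3 arrays. Points are arrays, symbols are probe sets and bars are group means. The first probe set of Tnfsf11 lies at 2.00 and above on the 3 wild-type PMSG arrays and at -1.09 and below on the 3 knockout PMSG arrays, and Tnfrsf12a separates the hCG arrays from the PMSG arrays in both genotypes.

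Tnfrsf11a, the receptor through which RANKL signals, varied little. Its probe set 1419214_at had an SD of 0.04 over the 12 arrays and 1430259_at an SD of 0.12, both below the 0.15 needed to enter the test. The widest array of either lay at 0.30, on knockout replicate 3 after PMSG. A probe set that hardly varies in centred values may be at the floor of the array or steady at a high level, and the deposited values do not tell these apart.

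Tnfrsf11b, the decoy that competes with Tnfrsf11a for RANKL, did not pass the test in any comparison. Its tested probe set, 1449033_at, lay between -0.22 and 0.60, and the highest value was on 1 array, knockout hCG replicate 2. The genotype difference was 0.10 after PMSG (limma adjusted p = 0.853, 95% confidence interval -0.38 to 0.57) and 0.21 after hCG (adjusted p = 0.553). Its second probe set, 1418309_at, spanned only -0.07 to 0.10 and correlated with the first at r = 0.056.

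Eda2r encodes a receptor for an isoform of ectodysplasin A, without a death domain, and is a known target of p53. It was highest in knockout cells after PMSG and lower after hCG in both genotypes. Its single probe set, 1440085_at, read 0.59, -0.10 and 0.33 in the wild type after PMSG and 0.90, 1.27 and 1.27 in the knockout after PMSG. After hCG it read -1.40, -0.18 and -1.29 in the wild type and -1.32, -0.46 and 0.10 in the knockout. The 3 knockout arrays after PMSG lay above all 9 others, while the hCG arrays of both genotypes overlapped.

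The Eda2r knockout difference was 0.87 ± 0.39 after PMSG (1.83-fold) and 0.39 ± 0.39 after hCG. From PMSG to hCG the mean moved by -1.23 in the wild type (2.35-fold) and by -1.71 in the knockout (3.27-fold), without overlap of arrays in either. The responses to hCG differed between genotypes by -0.48 ± 0.55. With 1 array left out, the hCG change stayed between -1.62 and -1.01 in the wild type and between -2.04 and -1.33 in the knockout. The genotype difference after hCG ranged from 0.07 without knockout replicate 3 to 0.78 without wild-type replicate 2.

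Tnfrsf12a encodes Fn14, the receptor of the cytokine TWEAK and a gene that many cells induce on injury or growth stimulation. It rose steeply after hCG in both genotypes, and before hCG it was lower in the knockout. Its first probe set, 1418571_at, read -1.74, -2.21 and -1.84 in the wild type after PMSG and -3.09, -3.71 and -3.93 in the knockout after PMSG. After hCG it read 2.37, 2.01 and 2.49 in the wild type and 2.13, 1.84 and 1.73 in the knockout. Arrays within a group lay close together, and on this probe set only the hCG groups of the genotypes overlapped.

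The hCG difference of Tnfrsf12a was 4.22 ± 0.25 in the wild type, an 18.6-fold rise (limma adjusted p = 7.6e-07). In the knockout it was 5.48 ± 0.25, a 44.5-fold rise (limma adjusted p = 1.5e-07). The second probe set, 1418572_x_at, whose suffix marks probes that may also match other transcripts, gave 3.88 and 4.74 for the same differences, and the probe sets correlated at r = 0.993. The rises were larger than any spread within a group.

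After PMSG, Tnfrsf12a was lower in the knockout by -1.64 ± 0.25, or 3.12-fold (limma adjusted p = 0.0033), and the second probe set gave -1.31. With any 1 array left out the difference lay between -1.89 and -1.47 and kept its call. It was no longer called when the arrays were quantile normalized again (-0.93, adjusted p = 0.055) or when only low-numbered arrays were used (-1.47, adjusted p = 0.086). After hCG the genotype difference was -0.38 (limma adjusted p = 0.322, 95% confidence interval -0.93 to 0.17), and it turned to 0.32 with repeated quantile normalization. The second probe set gave -0.45 after hCG without overlap of arrays, which did not pass the test over all probe sets (limma adjusted p = 0.142). The hCG responses of the genotypes differed by 1.26 ± 0.35, which did not pass the test (limma adjusted p = 0.110) but did with the mean over both probe sets (1.06, adjusted p = 0.041) and without knockout PMSG replicate 1 (1.50, adjusted p = 0.046).

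Tnfrsf19, or TROY, is an orphan receptor known from hair follicles and neural tissue, and its 3 probe sets followed different patterns. The most variable, 1425212_a_at, read 1.53 on wild-type PMSG replicate 3 and between -0.22 and 0.11 on the 11 other arrays. Its knockout difference after PMSG was -0.53 (limma adjusted p = 0.450) with that array and -0.02 without it. The probe set 1448147_at read 1.04, 0.32 and 0.29 on the wild-type hCG arrays, against -0.04, -0.02 and -0.07 on the knockout ones. Those groups did not overlap, and the difference of -0.60 did not pass the test over all probe sets (limma adjusted p = 0.172). The third, 1415921_a_at, lay between -0.06 and 0.32, and correlations between the 3 ran from -0.233 to 0.355.

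Tnfrsf21, death receptor 6, rose after hCG in the wild type. Its most variable probe set, 1450731_s_at, read 0.19, -1.65 and -1.21 in the wild type after PMSG and 1.30, 0.75 and 1.70 after hCG. In the knockout it read -1.46, -0.61 and -0.19 after PMSG and -0.54, 0.36 and 0.24 after hCG. All wild-type hCG arrays lay above every other array, and the knockout groups overlapped.

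The hCG difference of Tnfrsf21 was 2.14 ± 0.48 in the wild type, a 4.41-fold rise (limma adjusted p = 0.0087), and 0.77 ± 0.48 in the knockout (limma adjusted p = 0.582). The difference between these responses, -1.37 ± 0.68, did not pass the test (limma adjusted p = 0.390). After hCG the knockout lay lower by -1.23 without overlap of arrays, and this did not pass either (limma adjusted p = 0.092). The second probe set, 1422740_at, gave an hCG difference of only 0.45 in the wild type (limma adjusted p = 0.508 over all probe sets).

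**Figure D2:**
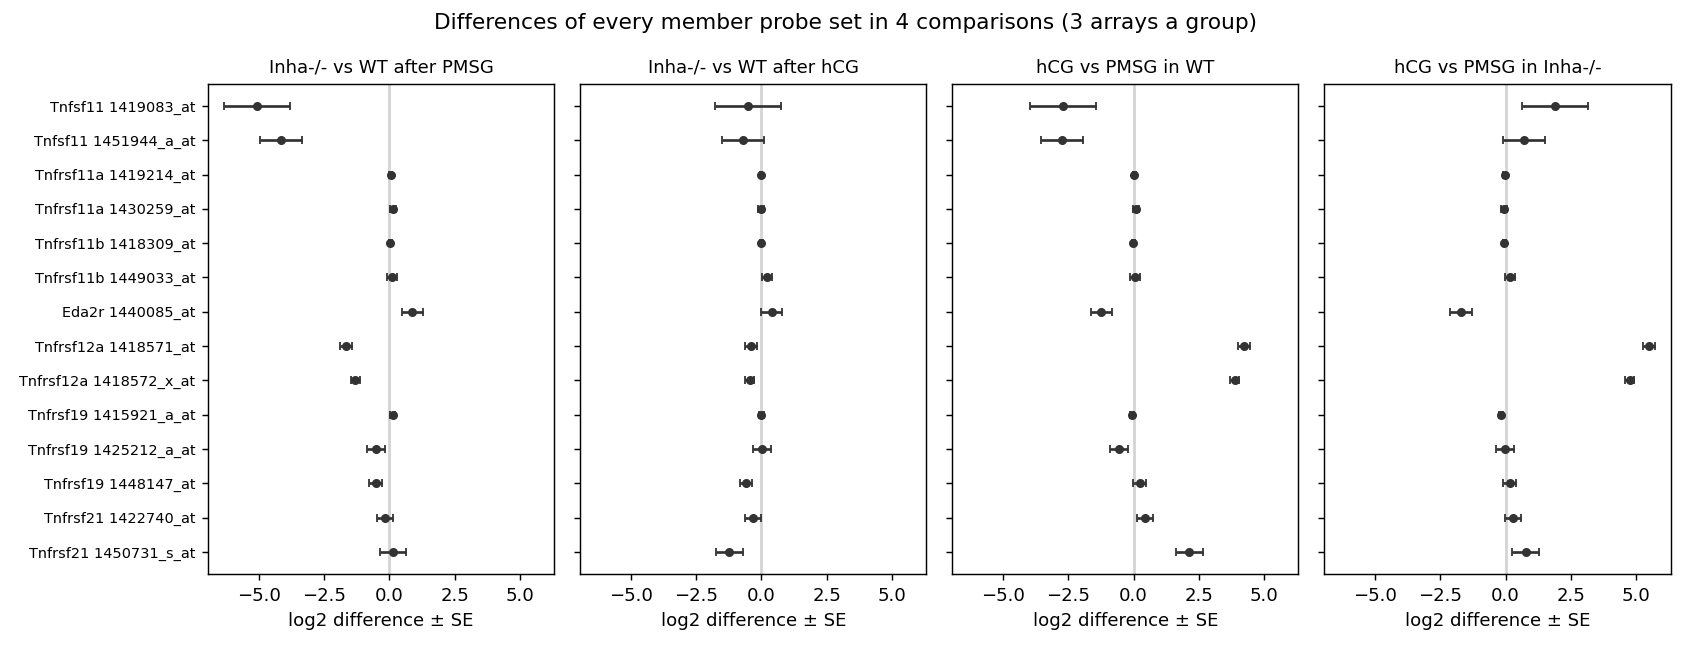
Log2 differences (x axis) with their standard errors for each of the 14 probe sets in the 4 comparisons, 3 arrays a group, from the fit over every single-gene probe set. Within each of the 4 comparisons the 2 probe sets of Tnfsf11 have the same sign as each other, and so do those of Tnfrsf12a. Tnfrsf21 1450731_s_at (2.14) and 1422740_at (0.45) differ in size in the wild-type hCG response.

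Over all 12500 genes tested, 6.19% were called between the genotypes after PMSG, 21.4% between the genotypes after hCG, 22.1% between hCG and PMSG in the wild type, 2.67% between hCG and PMSG in the knockout, and 2.09% for the difference between the responses. Of the 4 tested genes other than Tnfsf11 and Eda2r, 1 was lower in the knockout after PMSG (3.21% of all genes were called lower). Between the genotypes after hCG 0 of 4 were called. In the wild-type hCG response 2 of the 4 were higher (9.87% of all genes), and in the knockout response 1 of 4 was (2.45% of all genes). For the difference between the responses it was 0 of 4. Arrays did not overlap for 3 of the 6 tested genes between the genotypes after PMSG (25.6% of all genes) and for 1 of 6 after hCG (40.2%). They did not overlap for 4 of 6 in the wild-type hCG response (43.2%) and for 2 of 6 in the knockout response (15.6%). Tnfsf11 and Eda2r are among these 6, and with so few genes these shares are given as a description.

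Among the genes tested, those whose values followed Tnfsf11 most closely over the 12 arrays were Ahr (r = 0.921), the aryl hydrocarbon receptor, then 2610507I01Rik (r = 0.898), Tmed8 (r = 0.885), Qsox1 (r = 0.884) and Dnah2 (r = 0.877). Those closest to Eda2r were Gemin8 (r = 0.963), Abhd10 (r = 0.950), Fam120aos (r = 0.924), Psd3 (r = 0.903) and Clec1a (r = 0.898). The arrays of a group share genotype and treatment, so these values describe a likeness of pattern and carry no test.

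**Figure D3:**
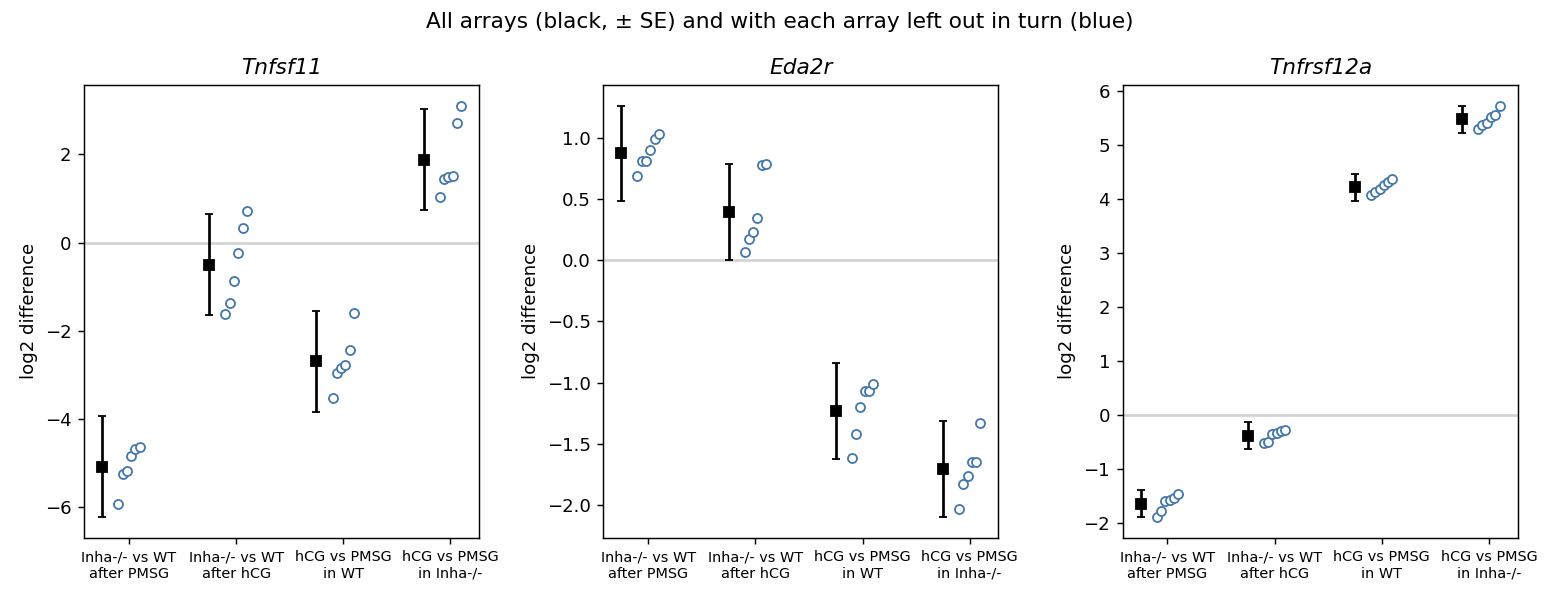
Log2 differences (y axis, own scale in each panel) of Tnfsf11, Eda2r and Tnfrsf12a in 4 comparisons, with all arrays (black squares, ± SE) and with each array of the groups compared left out in turn (blue circles). The Tnfsf11 difference after PMSG stays between -5.92 and -4.63, while its difference after hCG crosses 0.

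Of the 71 other genes listed for the pathway, 40 were tested: 3 ligands, 12 receptors, 13 adaptors and 12 NF-kB subunits and regulators. In the knockout after PMSG, 2 of the 40 were higher and 1 lower, and after hCG 1 was higher and 5 lower. After hCG in the wild type 9 of the 40 rose and 0 fell, and in the knockout 1 rose and 0 fell. Of all 12500 genes tested, 6.19% were called between the genotypes after PMSG and 21.4% after hCG, in either direction. For the hCG responses the shares were 22.1% in the wild type (9.87% higher) and 2.67% in the knockout (2.45% higher). The median difference over the 40 genes was 0.19 in the wild-type hCG response, against -0.06 over all genes tested, and -0.24 between the genotypes after hCG, against 0.04. After PMSG the median between the genotypes was 0.00, against 0.02, and in the knockout hCG response -0.02, against -0.03.

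Among the ligands, Tnfsf9 (4-1BB ligand, which costimulates T cells) was higher in the knockout by 1.01 ± 0.24 after PMSG (limma adjusted p = 0.029) and by 1.10 after hCG (adjusted p = 0.0067). It also rose after hCG, by 1.15 in the wild type (adjusted p = 0.0056) and by 1.23 in the knockout (adjusted p = 0.015). The genotype call after PMSG was lost without any 1 of the 3 wild-type arrays or knockout replicates 1 and 3 (adjusted p 0.060 to 0.106), and the knockout hCG call without knockout PMSG replicate 2 (adjusted p = 0.057). The other 2 tested ligands, Tnfsf13b and Eda, were not called in any comparison.

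Among the receptors, Tnfrsf9, the receptor of the Tnfsf9 ligand, rose after hCG in the wild type by 1.99 ± 0.51 (limma adjusted p = 0.016) and was lower in the knockout after hCG by -2.20 (adjusted p = 0.0098). The wild-type rise was not called without wild-type PMSG replicate 1 (adjusted p = 0.055), and the 2 other probe sets of Tnfrsf9 gave 0.00 and 0.30. The genotype difference was -1.41 without wild-type hCG replicate 3 and stood at -0.30 and -0.00 on the other probe sets. It was not called with only the groups compared (adjusted p = 0.063) or in high-numbered arrays (adjusted p = 0.134). Ngfr, the low-affinity neurotrophin receptor, was higher in the knockout after PMSG by 1.98 ± 0.37 (adjusted p = 0.0087), and its other probe sets gave 0.03 and 0.06. Tnfrsf22, a decoy for TRAIL, rose by 0.84 after hCG in the wild type (adjusted p = 0.019), and its other probe sets gave -0.02 and 0.02. The mean over its probe sets gave 0.28 and was not called (limma adjusted p = 0.219). With repeated quantile normalization, after which the probe set of the largest SD was chosen anew, the value was 0.00. The call was lost without wild-type PMSG replicates 1 or 2 or hCG replicates 1 or 3 (adjusted p 0.051 to 0.072). Tnfrsf1a, the main TNF receptor, rose by 0.80 (adjusted p = 0.048) and was not called with any 1 array left out (adjusted p 0.054 to 0.158).

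Of the 13 adaptors, only Cflar was called. Cflar encodes cFLIP, which keeps caspase 8 from being activated at death receptors. It was lower in the knockout by -1.44 ± 0.30 after PMSG (limma adjusted p = 0.017) and by -2.01 ± 0.30 after hCG (adjusted p = 8.4e-04). The first call was lost without wild-type replicate 1 (adjusted p = 0.065) or replicate 3 (adjusted p = 0.061). Its other probe sets ran from -0.81 to 0.17 after PMSG and from -1.33 to 0.14 after hCG.

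Of the 12 NF-kB subunits and regulators, 5 rose after hCG in the wild type, where 9.87% of all genes were called higher. In the knockout response, where only 2.67% of all genes were called, 0 of the 12 passed the test, and Bcl3 stood at 1.53 (limma adjusted p = 0.263). Nfkbie alone of the 12 passed the test of the difference between the responses. In the knockout after hCG, 3 were lower than in the wild type, as were 1104 of all 12500 genes. Nfkbie, an inhibitor that holds NF-kB in the cytoplasm, rose by 1.50 ± 0.20 in the wild type (limma adjusted p = 4.5e-04) and was lower in the knockout after hCG by -1.48 (adjusted p = 4.8e-04). Its response to hCG differed between genotypes by -1.52 ± 0.28 (limma adjusted p = 0.019), and that call was lost without wild-type PMSG replicates 2 or 3 or knockout hCG replicates 2 or 3 (adjusted p 0.050 to 0.060). A second probe set of Nfkbie gave 0.03 in the wild-type response and -0.10 for the difference between responses.

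Nfkbia, the inhibitor that NF-kB itself induces, rose by 1.71 ± 0.43 in the wild type (limma adjusted p = 0.016) and was lower in the knockout after hCG by -1.67 (adjusted p = 0.018). Its other 4 probe sets gave rises of 0.82 to 1.64. The rise was not called without wild-type PMSG replicate 1 (adjusted p = 0.057) or hCG replicate 3 (adjusted p = 0.078), and the genotype difference not without wild-type replicates 2 or 3 or knockout replicates 1 or 2 (adjusted p 0.052 to 0.082).

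The other NF-kB calls were close to the threshold. Bcl3, a nuclear co-regulator, rose by 1.70 in the wild type (limma adjusted p = 0.047), Nfkbib, a further inhibitor, by 0.59 (adjusted p = 0.041), and Rela, the p65 subunit, by 0.62 (adjusted p = 0.0497). Ikbkg, the regulatory subunit of the kinase that marks the inhibitors for degradation, was lower in the knockout after hCG by -1.35 (limma adjusted p = 0.045). The Rela call was lost without any 1 array, and the calls of Bcl3 and Nfkbib were lost without any 1 array other than wild-type hCG replicate 2 (adjusted p up to 0.166 for Bcl3 and 0.162 for Nfkbib). The Ikbkg call was lost without any 1 array other than knockout replicate 3 (adjusted p up to 0.172). With the mean over probe sets, Nfkbib (0.30, limma adjusted p = 0.123) and Ikbkg (-0.61, adjusted p = 0.141) were not called either.

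**Figure D4:**
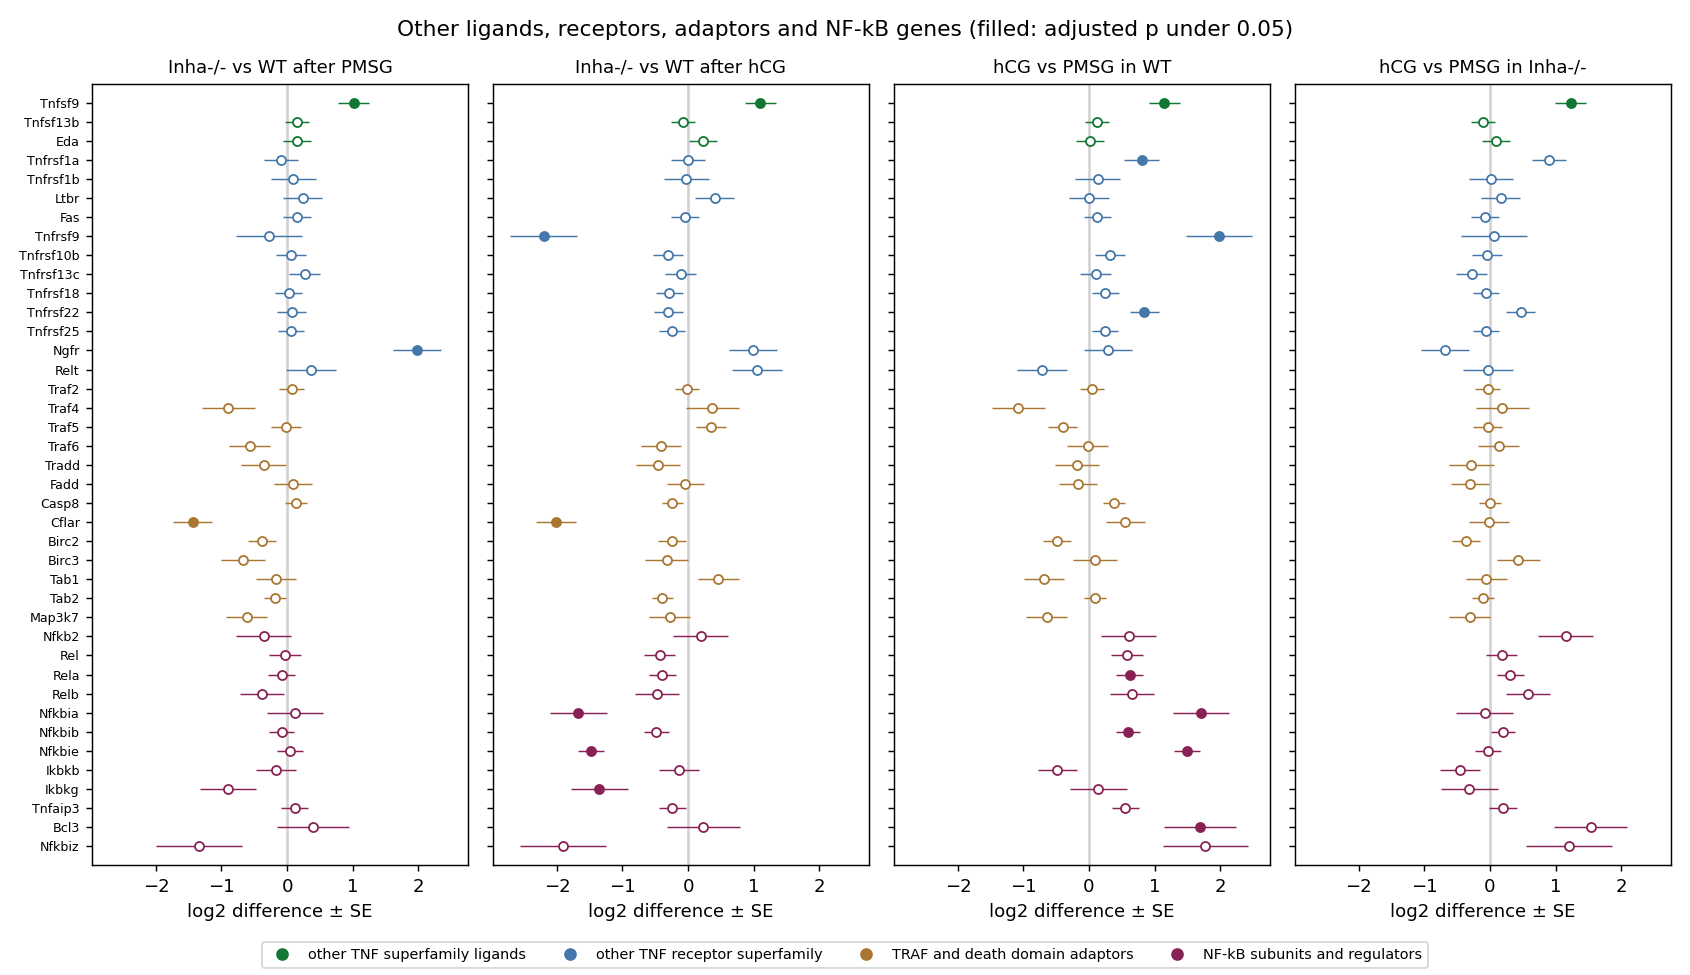
Log2 differences (x axis) with their standard errors for the 40 tested ligands, receptors, adaptors and NF-kB genes in the 4 comparisons, coloured by list, with filled points at an adjusted p below 0.05. In the wild-type hCG response 9 points are filled and all lie to the right of 0, and in the knockout response 1 is filled. Of all genes tested, 22.1% were called in the wild-type response and 2.67% in the knockout response.

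Genes known in other tissues to act upstream of RANKL, or to bind it, were taken as a further list of 10, of which 8 were tested. Pgr, the progesterone receptor, through which progesterone raises RANKL in mammary epithelium, rose after hCG by 7.92 ± 0.18 in the wild type (limma adjusted p = 3.6e-10) and by 7.37 ± 0.18 in the knockout (adjusted p = 1.1e-09). These are values of the Pgr probe set of the largest SD, and its 2 further probe sets stood at 0.00 and 2.05 for the wild-type response and at 0.00 and 1.94 for the knockout response. Tnfsf11 moved by -2.69 and 1.88 in the same comparisons, and the part of Pgr in these values was not tested. After hCG, Pgr was lower in the knockout by -0.73 (limma adjusted p = 0.016), a value that turned to 0.57 with repeated quantile normalization. That difference was not called with the mean over probe sets (-0.25, adjusted p = 0.292), without wild-type replicate 3 (adjusted p = 0.061) or knockout replicate 1 (adjusted p = 0.055).

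Nr3c1, the glucocorticoid receptor, was higher in the knockout by 2.80 ± 0.24 after PMSG (limma adjusted p = 9.9e-05) and by 0.81 after hCG (adjusted p = 0.031), and rose by 2.22 after hCG in the wild type (adjusted p = 7.7e-05). The difference after hCG was not called without wild-type replicates 2 or 3 or knockout replicate 1 (adjusted p 0.089 to 0.099). Its response to hCG differed between genotypes by -1.995 ± 0.33 (limma adjusted p = 0.011), and by -0.90 with the mean over its 6 probe sets, which was not called (adjusted p = 0.060). The other 5 probe sets gave -1.54 to -0.04 for that difference, 0.05 to 2.30 between the genotypes after PMSG and 0.01 to 2.02 in the wild-type response. Lgr4, which also binds RANKL, was lower in the knockout after hCG by -1.29 ± 0.21 (adjusted p = 0.0014) and rose by 0.80 after hCG in the wild type (adjusted p = 0.019). The rise was not called without wild-type PMSG replicates 2 or 3 or hCG replicates 1 or 3 (adjusted p 0.053 to 0.073). With the mean over its probe sets the Lgr4 genotype difference after hCG was -0.65, and the rise was 0.40 and not called (limma adjusted p = 0.061). Stat5a, which carries prolactin signals, fell by 1.84 after hCG in the wild type (limma adjusted p = 0.035), a call lost without any 1 array other than hCG replicate 1 (adjusted p up to 0.137). Stat5b, Vdr, Pth1r and Il6st were not called in any comparison.

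Because Eda2r is a known p53 target, 18 other p53 targets were taken as a list, of which 17 were tested. After PMSG 0 of the 17 were higher in the knockout and 1 was lower, Trp53inp1 at -2.46 ± 0.55 (limma adjusted p = 0.023). Of all 12500 genes tested, 6.19% were called in this comparison. The median over the 17 was -0.41, against 0.02 over all genes tested, and the Eda2r difference was 0.87. Whether the Eda2r values depend on p53 was not tested. After hCG 3 of the 17 were higher and 4 lower in the knockout, where 21.4% of all 12500 genes were called. The 4 with the smallest adjusted p were Plk2 (3.48, adjusted p = 0.0021) and Gtse1 (0.80, adjusted p = 0.015), which were higher, and Zmat3 (-1.43, adjusted p = 0.0040) and Cdkn1a (-1.88, adjusted p = 0.033), which were lower. With the mean over its probe sets the Plk2 difference was 1.74. The other calls were Ei24, higher by 0.56, and Ccng1 and Rrm2b, lower at -1.17 and -0.95, and each was lost without any 1 array (adjusted p 0.053 to 0.151). Without wild-type hCG replicate 3, Plk2 and Zmat3 alone of the 7 kept their calls.

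After hCG in the wild type 2 of the 17 rose, Cdkn1a (3.31, limma adjusted p = 0.0019), the cell cycle inhibitor p21, and Sesn2 (1.10, adjusted p = 0.011), and 2 fell, Sesn1 (-0.96, adjusted p = 0.012) and Ei24 (-0.64, adjusted p = 0.022). In the knockout Plk2 rose by 4.67 (adjusted p = 0.0010) and Cdkn1a by 2.68 (adjusted p = 0.024). With the mean over its probe sets the Plk2 rise was 2.33. Of all 12500 genes tested, 22.1% were called in the wild-type response and 2.67% in the knockout response. Plk2, a stress-induced kinase, differed in its response to hCG between genotypes by 4.61 ± 0.86 (limma adjusted p = 0.019), on 1 of its 2 probe sets, the other at -0.02. Single arrays ended several of these calls: Trp53inp1 was not called without wild-type replicate 2 (adjusted p = 0.059) or 3 (adjusted p = 0.092), and Gtse1 not without wild-type hCG replicate 3 (adjusted p = 0.062) or knockout hCG replicate 3 (adjusted p = 0.057). Cdkn1a was called with 1 of 6 arrays left out between the genotypes after hCG (adjusted p up to 0.124) and with 1 of 6 in the knockout response (adjusted p up to 0.120). The Ei24 fall was not called without wild-type PMSG replicate 1 (adjusted p = 0.078) or hCG replicates 1 (adjusted p = 0.053) or 3 (adjusted p = 0.070).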

How the data were processed

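Granulosa cell RNA was measured on 12 arrays, grouped by the titles and characteristics in the labels. The deposited values are log2 expression after GCRMA, per the submitters' processing notes. The version of that program is not given in the sources used here. Every probe set has a median of 0 over the arrays within 5e-07, so the values were centred, which the labels do not say. The widest probe set spans 13.3 units. Of 45101 probe sets 64 controls were left out, 932 name several genes and 9160 none. Each gene was represented by its single-gene probe set of the largest SD, kept in the upper 60% by SD (at least 0.1506). A group-means model over all 12 arrays was fitted with limma 3.58.1 in R 4.3.3 with 5 contrasts, after a check on simulated data. The number of arrays, 3 a group, limits the precision. The 7 genes, the lists and the comparisons were chosen with earlier results of these data known. From each further list the text names the called genes of a comparison, or the 4 of the smallest adjusted p. Alternatives covered the filter, probe set choice, normalization, array weights, blocks and left-out arrays. After each repeated normalization the probe set of a gene was chosen anew.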

Additional observations from a re-analysis of the deposited data

Results flagged for a closer look

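In 3 genes named above the response to hCG differed between the genotypes by the test of the difference itself (limma, adjusted over all genes tested, 3 arrays a group). The knockout response minus the wild-type response was -1.52 for Nfkbie, -1.995 for Nr3c1 and 4.61 for Plk2. The Nr3c1 call held with each of the 12 arrays left out in turn. The Nfkbie call held in 8 of 12 and the Plk2 call in 9 of 12. With the mean over probe sets Nr3c1 (-0.90, adjusted p = 0.060) and Nfkbie (-0.81, adjusted p = 0.052) were not called. Plk2 was not called without the filter on SD (adjusted p = 0.056) or over every probe set (adjusted p = 0.062).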

How the results depend on the processing

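Counts of genes called moved most with the spread and the arrays used. With only the groups compared, 462 genes were called between the genotypes after PMSG (774 with all arrays) and 142 in the knockout hCG response (334). Low-numbered arrays alone gave 173 after PMSG, and high-numbered arrays alone gave 1061 between the genotypes after hCG (2672). Array weights gave 4543 in the wild-type hCG response (2764) and 474 for the difference between the responses (261). With 1 array left out, the counts ran from 432 to 901 after PMSG, from 1630 to 2507 after hCG, from 1538 to 2669 in the wild-type response, from 214 to 374 in the knockout response and from 136 to 549 for the difference. The counts moved by over 1.5 times without wild-type PMSG replicates 1 (475), 2 (493) or 3 (432) after PMSG, without wild-type hCG replicate 3 after hCG (1630) and in the wild-type response (1538), and without knockout hCG replicate 2 in the knockout response (214). For the difference they did so without wild-type PMSG replicates 2 (136) or 3 (148), wild-type hCG replicate 2 (549) or knockout hCG replicates 2 (171) or 3 (163). Repeated quantile normalization lowered the share of higher calls in the knockout hCG response from 91.6% to 76.6%, and neither scaling moved the median of all genes by over 0.1.

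Of the 40 pathway genes, the 3 called after PMSG became 1 with only the groups compared and 0 in low-numbered arrays. The 6 after hCG became 10 with array weights and 2 in high-numbered arrays. The 9 in the wild-type response became 5 with repeated quantile normalization, 5 with the name number as a random block, 5 with the serial number as a covariate and 16 with array weights. The 1 in the knockout response became 0 with only the groups compared and 2 with the serial number, and the 1 for the difference became 2 over every probe set. With 1 array left out these counts ran from 1 to 3, 4 to 6, 3 to 7, 0 to 2 and 0 to 1.

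Tnfrsf12a after PMSG was not called with repeated quantile normalization (-0.93) or in low-numbered arrays (-1.47), its value after hCG turned to 0.32 with the former, and its difference between the responses passed with the mean over probe sets (1.06) and ran from 1.08 to 1.50 with 1 array left out. Pgr after hCG reversed to 0.57 with repeated quantile normalization. The cause of these changes was not tested.

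The labels do not say that replicate numbers pair the samples. Deviations of same-numbered samples correlated between -0.13 and 0.30, and the replicate block gave 755, 2683, 2813, 324 and 247 calls in the 5 comparisons and left Tnfrsf12a after PMSG at -1.64 (limma adjusted p = 0.0029). The Ikbkg, Ccng1, Ei24, Tnfrsf1a, Rela, Nfkbib and Bcl3 calls were lost under the replicate block (adjusted p 0.052 to 0.067). A number in the array names, whose meaning the labels do not give, is shared between the genotypes by replicates 1 and by replicates 2 after PMSG (r = 0.18 and 0.30). Within a group it is shared by wild-type hCG replicates 2 and 3, whose values over the genes tested correlated at r = 0.83. As a random block (consensus correlation 0.297) this number ended the same 7 calls and those of Rrm2b and Stat5a (adjusted p 0.054 to 0.080).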
